A study of Mus musculus with 2 samples.

Results

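Fibroblast growth factor (FGF) signalling in the mouse lacrimal gland was followed through 10 genes chosen by symbol, the ligand Fgf10, the receptors Fgfr1 and Fgfr2, the transcription factors Etv1, Etv4 and Etv5, the phosphatase gene Dusp6, and the feedback inhibitors Spry1, Spry2 and Spry4. All 10 were found among the 27775 genes counted, each with 1 identifier. Single cells were counted from lacrimal glands of CD1 mice, wild type and outbred, either before birth on embryonic day 16 (E16) or 4 days after it (P4), with no allele or treatment named at either age. A single library was made per stage from glands that had been pooled and digested with Liberase TM and DNaseI. How many animals a pool holds is unknown here. The title speaks of 10X Genomics and the protocol of Drop-seq. Either method tags transcripts with a cell barcode and a unique molecular identifier (UMI), so that a UMI stands for 1 captured molecule. Stage, litter and library therefore cannot be told apart, no test across samples could be made, and every interval is a 95% interval for counting error only.

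In branching glands FGF10 is secreted by the mesenchyme and acts on the epithelium, chiefly through the IIIb splice form of FGFR2, with heparan sulphate as a cofactor. Mice that lack Fgf10 fail to form lacrimal glands. The activated receptor signals through adaptors to the RAS and ERK kinases, and ERK activity raises transcription of the ETS factors Etv1, Etv4 and Etv5 (the PEA3 family), of Dusp6, whose product removes phosphate from ERK, and of the Sprouty genes, whose products damp the cascade. Transcripts of Etv4, Etv5, Dusp6 and the Sproutys are widely used as a readout of FGF activity, although other receptor tyrosine kinases use the same cascade. Counts per gene do not separate the IIIb and IIIc forms of the receptors.

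Proteins of the ETS family bind sites with a GGA core. The start-site windows of Etv5 and Dusp6 are shown because these genes had the highest UMI counts among the 10 in E16 epithelium and were both lower at P4. Each is the 250 bases before a RefSeq transcript start (build GRCm38.p6), written 5′ to 3′ on the strand of the gene, chr16:22439571-22439820 on the minus strand for Etv5 and chr10:99262981-99263230 on the plus strand for Dusp6. Capitals mark matches on either strand to the motif CCGGAA, or to its shifted form CGGAAG that overlaps it, or to the further shifted motif GGAAGT that overlaps both.
Etv5: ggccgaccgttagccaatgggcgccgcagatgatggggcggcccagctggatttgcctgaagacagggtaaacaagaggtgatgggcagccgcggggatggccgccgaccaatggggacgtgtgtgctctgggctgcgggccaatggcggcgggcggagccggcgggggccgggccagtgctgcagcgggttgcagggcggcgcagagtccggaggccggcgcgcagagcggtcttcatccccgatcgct
Dusp6: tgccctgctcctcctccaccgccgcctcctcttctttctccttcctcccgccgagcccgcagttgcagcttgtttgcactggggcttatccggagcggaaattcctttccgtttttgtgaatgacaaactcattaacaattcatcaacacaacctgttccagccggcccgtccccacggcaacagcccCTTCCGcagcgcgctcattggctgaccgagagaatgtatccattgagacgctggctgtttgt
The Dusp6 window held 1 match, to CGGAAG read on the opposite strand, and this Etv5 window held none. A second Etv5 start window, chr16:22438369-22438618, held 1 match to GGAAGT. The remaining windows, of Etv1, Spry1, Spry2, Fgfr2 and Fgf10, held none, and Etv4, Spry4 and Fgfr1 had no window in the table, so that 7 of 10 genes were searched. Over all 32851 windows of this length, CCGGAA occurred in 12.0%, CGGAAG in 13.6% and GGAAGT in 19.7%, so that a match here is a description of the letters and not a binding site.

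On the mm10 build, with GENCODE M21 matched on the Ensembl identifier, Etv5 spans chr16:22381309-22439719 (minus strand), Etv4 chr11:101769742-101785371 (minus), Dusp6 chr10:99263231-99267489 (plus), Spry1 chr3:37639947-37644598 (plus), Fgf10 chr13:118669791-118792115 (plus) and Fgfr1 chr8:25513654-25575718 (plus), all as protein-coding genes. Fgfr1, Spry1 and Fgf10 each have 1 annotated gene on the opposite strand within the span and Spry4 has 2, and no source used here says whether the counting used the strand. Fgfr2 (chr7:130162451-133123350, minus) has an unusually long annotated span that holds 36 other genes on the same strand, so its low counts are uncertain.

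Of 437 barcodes in E16 and 687 in P4, those with at least 200 detected genes were kept, 259 and 406. The kept cells had a median of 5802 and 3767 UMIs, no barcode was shared by both libraries, and the barcodes left out were mostly haemoglobin RNA (median 95.9% and 95.7% of UMIs). Clusters named from marker genes, made without the 10 genes and without their pathway, gave 87 epithelial-like cells in E16 and 98 in P4, and 79 and 171 mesenchyme-like cells. The classes held 626924 and 736613 UMIs, and 470641 and 775698 UMIs. Different clusters made up a class at each stage. E16 epithelium was mostly clusters 1 and 9, and P4 epithelium clusters 1, 6 and 10, of which cluster 10, led by the secretory genes Dcpp1, Dcpp2 and Bpifa2, held P4 cells only and had no epithelial marker among its leading genes. All 20 epithelial markers were detected in the epithelial class at both stages, at 5229 and 8545 CPM, against 61.6 and 156 CPM in the mesenchyme class. E16 mesenchyme was mostly cluster 2, and P4 mesenchyme clusters 0, 4 and 5. Levels are UMIs of a gene per 1000000 UMIs of the class (CPM).

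Fgf10, the mesenchymal ligand of gland branching, was found mainly in mesenchyme-like cells at both stages. It had 29 UMIs in E16 mesenchyme (61.6 CPM, 41.3 to 88.5) and 31 in P4 mesenchyme (40.0 CPM, 27.2 to 56.7). Epithelial-like cells had 3 UMIs at each stage (4.79 and 4.07 CPM). Fgf10 was thus 12.9-fold higher in mesenchyme than in epithelium at E16 (3.99 to 66.1) and 9.81-fold at P4 (3.06 to 50.2). The size of the E16 ratio leans on 1 mesenchyme-like cell with 16 of the 29 UMIs. Without that cell, E16 mesenchyme stood at 28.0 CPM (14.9 to 47.9), still above the 4.79 CPM of epithelium. The 3 epithelial UMIs sit beside mesenchyme-marker RNA in the same class, 472 CPM in E16 and 1136 CPM in P4 over 14 marker genes, against 20060 and 46574 CPM in the mesenchyme class. In epithelial-like cells this list ranged from 0 to 51 UMIs per cell at E16 and from 0 to 335 at P4, with Twist1 and Twist2 at 0. Cells with 5 or more UMIs of the list, which are the deep ones, held 3 of the 3 Fgf10 UMIs at E16 (21 of 87 cells) and 1 of the 3 at P4 (33 of 98 cells). The part of such RNA in the epithelial Fgf10 UMIs was not tested.

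The 2 stages distributed Fgf10 differently over cells. At E16, 1 cell of cluster 0 held 16 of the 29 mesenchymal UMIs (55.2%), and 12 of 79 cells had any (15.2%, exact Clopper-Pearson interval 8.10 to 25.03%). At P4, 28 of 171 cells had at least 1 UMI (16.4%, 11.2 to 22.8%) and none had more than 2. Summed levels were 1.54-fold higher at E16 (0.897 to 2.64), and leaving out the top cell of each stage turned the direction, with 13 UMIs at E16 (28.0 CPM) and 29 at P4 (37.6 CPM), a P4-over-E16 ratio of 1.34 (0.676 to 2.81). Within P4 the ligand was spread over clusters 0, 4 and 5 at 34.8, 46.5 and 37.4 CPM, with overlapping intervals. Fgf7, which binds the same IIIb receptor form, had 12 UMIs in E16 mesenchyme (25.5 CPM) and 48 in P4 mesenchyme (61.9 CPM), 2.43-fold higher at P4 (1.27 to 5.02). Epithelial-like cells held 0 Fgf7 UMIs at E16 and 2 at P4. No cell of the E16 erythroid cluster, which should lack the ligand, held an Fgf10 UMI (0 of 25 cells, median 6700 UMIs, which by the limit of 3 counts allows up to 12.0% of cells with a UMI).

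**Figure D1:**
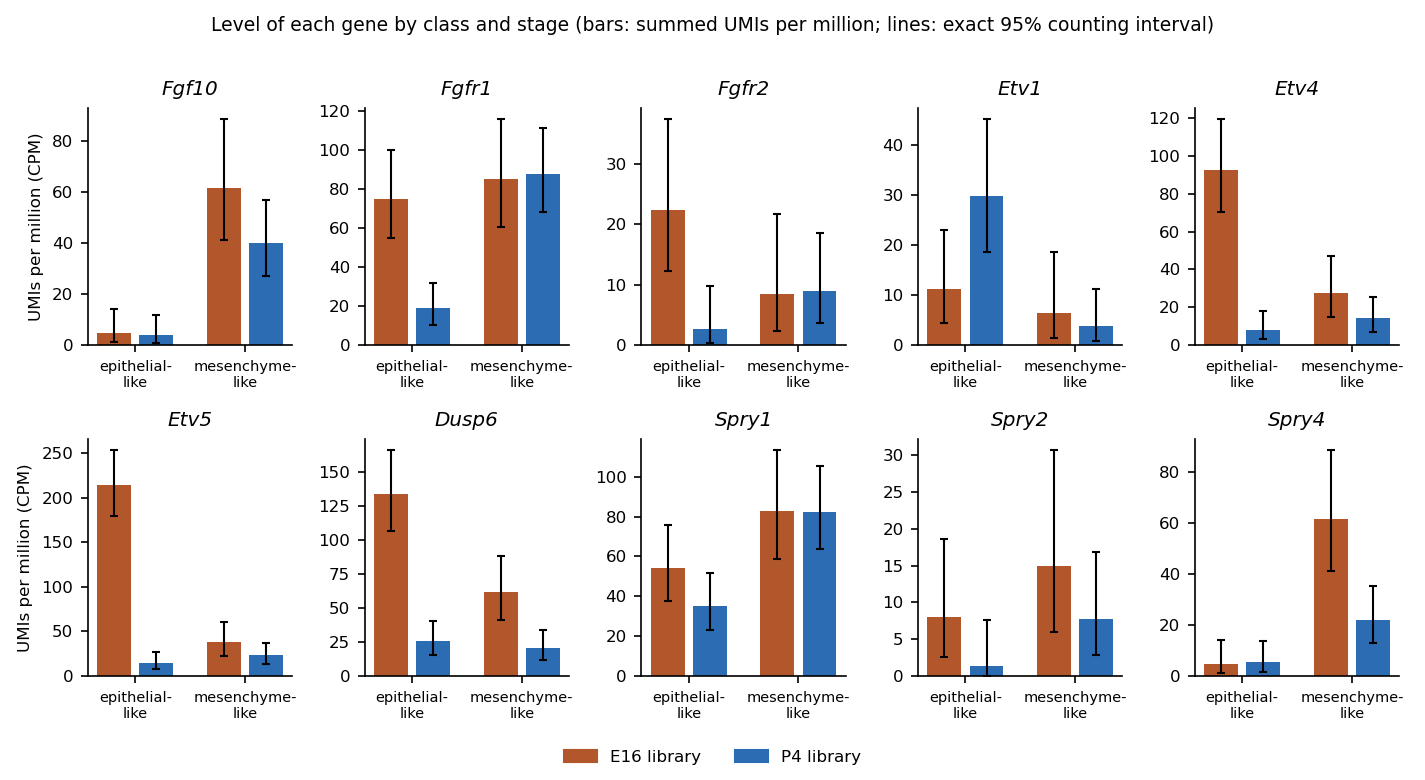
Level of each of the 10 genes as summed CPM in epithelial-like and mesenchyme-like cells of the E16 (brown) and P4 (blue) library, each panel with its own axis from 0 and exact 95% counting intervals. Etv4, Etv5, Dusp6 and Fgfr1 have a tall E16 epithelial bar and a short P4 one, while Fgf10 and Spry4 stand mainly in the mesenchyme.

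Of the receptors, Fgfr1 was lower in P4 epithelium and close to level in mesenchyme. It had 47 UMIs in E16 epithelium (75.0 CPM) and 14 in P4 epithelium (19.0 CPM), 3.94-fold higher at E16 (2.14 to 7.76). In mesenchyme it had 40 and 68 UMIs (85.0 and 87.7 CPM), a P4-over-E16 ratio of 1.03 (0.688 to 1.56). The E16 classes did not differ beyond counting error (ratio of epithelium over mesenchyme 0.882, 0.566 to 1.38), whereas at P4 the mesenchyme was 4.61-fold higher (2.57 to 8.88). A P4 mesenchyme-like cell held an Fgfr1 UMI in 55 of 171 cases (32.2%), and an E16 one in 27 of 79 (34.2%).

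Fgfr2, the receptor gene through which FGF10 acts on epithelium, was sparse. Its 14 UMIs in E16 epithelium lay in 11 of 87 cells (22.3 CPM, 12.2 to 37.5), and P4 epithelium had 2 UMIs in 98 cells (2.72 CPM, 0.329 to 9.81). This is an 8.22-fold higher level at E16 (1.89 to 74.6), from fewer than 30 UMIs in all. E16 mesenchyme had 4 UMIs in 4 cells, and the epithelial excess there of 2.63-fold (0.825 to 10.96) included no difference. All 7 UMIs of P4 mesenchyme came from 1 cell of cluster 5. Of the other receptors, Fgfr3 and Fgfr4 had at most 3 UMIs in any of the 4 groups, and Fgfrl1, which lacks the kinase domain, had 7 and 3 UMIs in epithelium.

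Etv5 and Etv4 showed the widest separation of the 10 genes between stages, in epithelial-like cells. Etv5 had 134 UMIs at E16 (214 CPM, 179 to 253) and 11 at P4 (14.9 CPM, 7.45 to 26.7), 14.3-fold higher at E16 (7.75 to 29.4). Etv4 had 58 UMIs (92.5 CPM, 70.3 to 120) and 6 (8.15 CPM, 2.99 to 17.7), 11.4-fold higher at E16 (4.91 to 32.2). The intervals of the levels do not overlap between stages for either gene.

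Epithelial cells with several Etv5 UMIs were found at E16 and not at P4. At E16, 36 of 87 cells held Etv5 (41.4%, 30.9 to 52.4%), 25 of them at least 2 UMIs, 12 at least 5, and the highest cell 15. At P4, 11 of 98 cells held Etv5 (11.2%, 5.74 to 19.2%), each with 1 UMI. Etv4 was found in 27 E16 cells (31.0%) and 6 P4 cells (6.12%). In cells that should lack these factors, 2 of 25 E16 erythroid cells held Etv5 and 0 held Etv4 (median 6700 UMIs), and 0 of 47 P4 macrophages held Etv5, which allows up to 6.38% (median 2887 UMIs).

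In mesenchyme-like cells neither factor differed between stages beyond counting error. Etv5 had 18 UMIs at each stage (38.2 and 23.2 CPM), 1.65-fold higher at E16 (0.809 to 3.36). Etv4 had 13 and 11 UMIs (27.6 and 14.2 CPM), 1.95-fold higher at E16 (0.805 to 4.802). At E16 epithelium exceeded mesenchyme 5.59-fold for Etv5 (3.40 to 9.72) and 3.35-fold for Etv4 (1.81 to 6.66). At P4 the order was the other way for both without exceeding counting error, with mesenchyme at 1.55-fold the epithelial level for Etv5 (0.695 to 3.64) and 1.74-fold for Etv4 (0.590 to 5.73). The order of Etv5 levels was E16 epithelium, E16 mesenchyme, P4 mesenchyme and P4 epithelium, and of these neighbours only the first pair was separated beyond counting error.

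Etv1, the third factor of the family, went the other way in epithelium. It had 7 UMIs in 6 E16 cells (11.2 CPM, 4.49 to 23.0) and 22 UMIs in 15 P4 cells (29.9 CPM, 18.7 to 45.2), 2.67-fold higher at P4 (1.10 to 7.41). The total of 29 UMIs was just under the 30 required of a measured gene, and leaving out the top cell of each stage gave 5 and 19 UMIs (8.17 and 27.2 CPM), with an interval of the ratio of 1.20 to 11.4. Both mesenchyme groups had 3 UMIs, and P4 epithelium stood 7.72-fold above P4 mesenchyme (2.32 to 40.3). At P4, 12 UMIs were in cluster 6 (34.9 CPM, 18.1 to 61.0), 8 in cluster 10 (28.0 CPM, 12.1 to 55.2) and 2 in cluster 1 (26.1 CPM, 3.16 to 94.3), levels that were not separated from one another. Outside these classes, P4 macrophages had 4 Etv1 UMIs in 47 cells, among 138839 UMIs in all, where P4 epithelium had 22 among 736613. These rates are similar, the macrophage one from only 4 UMIs, so Etv1 at P4 was not particular to epithelium.

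Dusp6, the ERK phosphatase, was lower at P4 in both classes. It had 84 UMIs in E16 epithelium (134 CPM, 107 to 166) and 19 in P4 epithelium (25.8 CPM, 15.5 to 40.3), 5.19-fold higher at E16 (3.13 to 9.05). In mesenchyme it had 29 and 16 UMIs (61.6 and 20.6 CPM), 2.99-fold higher at E16 (1.57 to 5.89). Epithelium exceeded mesenchyme 2.17-fold at E16 (1.41 to 3.44), or 1.20-fold where cells were classed by their own marker UMIs in place of clusters. At P4 the ratio of 1.25 (0.609 to 2.60) did not exceed counting error. Dusp6 was also found outside these classes. P4 macrophages had 15 UMIs (108 CPM), E16 endothelial-like cells 19 UMIs in 10 cells (198 CPM), and a cluster of dividing and glial cells left out of both classes (cluster 8) 44 UMIs in 25 E16 cells (210 CPM).

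The Sprouty genes differed from Dusp6 and from one another. Spry1 had 34 and 26 UMIs in epithelium (54.2 and 35.3 CPM), 1.54-fold higher at E16 (0.895 to 2.67), and 39 and 64 UMIs in mesenchyme (82.9 and 82.5 CPM), a P4-over-E16 ratio of 0.996 (0.658 to 1.52). Neither difference exceeded counting error. Spry4 was found mainly in mesenchyme. It had 29 UMIs in E16 mesenchyme (61.6 CPM) and 17 in P4 mesenchyme (21.9 CPM), 2.81-fold higher at E16 (1.49 to 5.45), against 3 and 4 UMIs in epithelium. E16 mesenchyme exceeded E16 epithelium 12.9-fold for Spry4 (3.99 to 66.1). Spry2 had 5 and 1 UMIs in epithelium and 7 and 6 in mesenchyme, too few to separate any of the groups.

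Over all 10 genes, 5 had at least 30 UMIs in epithelium and 4 of these were at least 2-fold lower at P4 (Etv5, Etv4, Dusp6 and Fgfr1), where 27.4% of the 5007 genes measured were. Each of these 4 reached 30 UMIs by its E16 count alone (134, 58, 84 and 47) and not by its P4 count (11, 6, 19 and 14). The same filter was applied to all genes. None of the 5 was at least 2-fold higher, against 7.09% of genes. Etv1, with 7 UMIs at E16 and 22 at P4, fell just short of 30 and so was not counted. It was 2.67-fold higher at P4 (1.10 to 7.41), and 3.85-fold relative to the median of all genes. Of the other genes below 30 UMIs, Fgfr2 and Spry2 were at least 2-fold lower at P4, Spry2 within counting error. Fgf10 and Spry4 lay between. The median log2 ratio of the 5 (P4 over E16) was -2.38, where all measured genes had -0.53. Together 4 transcripts, each above 1% of UMIs, took 23.7% of P4 epithelial UMIs and 0.00319% of E16 ones. Leaving these out moved the median of all genes to -0.14. Relative to the median of all genes the same count of 4 was at least 2-fold lower, against 11.9% of genes (13.8% were at least 2-fold higher, none of the 5), and Etv5 was still 9.94-fold, Etv4 7.89-fold, Dusp6 3.61-fold and Fgfr1 2.74-fold higher at E16. The Etv4 ratio depended on how cells were weighted: as a mean over cells rather than a sum, P4 over E16 was 0.41.

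In mesenchyme 6 of the 10 genes had at least 30 UMIs, and 2 of these (Dusp6 and Spry4) were at least 2-fold lower at P4, against 11.1% of 5119 genes, and none at least 2-fold higher, against 7.54%. Relative to the median of all genes the counts were again 2 and 0, against 8.15% and 9.4%. Their median log2 ratio was -0.67, and -0.14 for all measured genes. The 4 others, Etv5, Fgf10, Fgfr1 and Spry1, had intervals that included no difference.

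**Figure D2:**
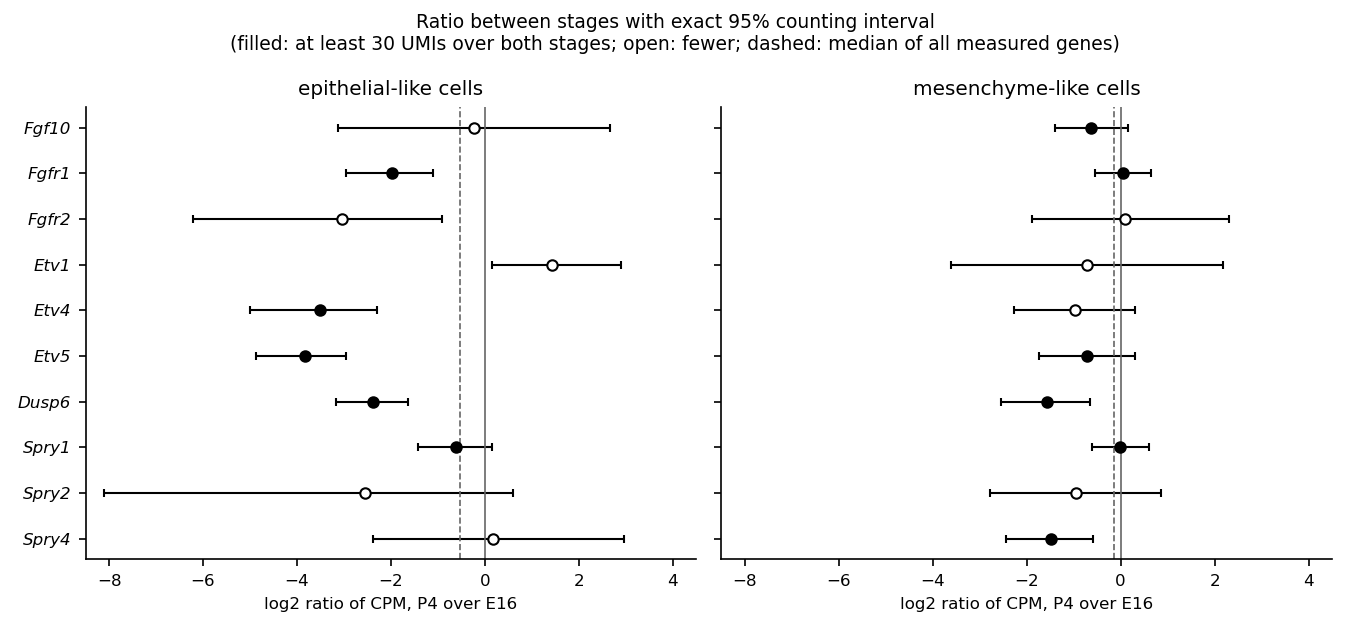
log2 ratio of CPM, P4 over E16, for each gene in both classes with exact 95% counting intervals, where filled points have at least 30 UMIs over both stages and the dashed line is the median of all measured genes. In epithelium Etv5, Etv4, Dusp6, Fgfr1 and the open point Fgfr2 lie wholly below the dashed line. The open point Etv1 lies above 0 there, and in mesenchyme Dusp6 and Spry4 lie below the dashed line.

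Between classes at E16, 7 genes had at least 30 UMIs. Etv5, Etv4 and Dusp6 were at least 2-fold higher in epithelium (3 of 7, or 2 of 7 with cells classed by their own marker UMIs, against 17.2% of 5069 genes), and Spry4 and Fgf10 at least 2-fold higher in mesenchyme (2 of 7, against 18.7%). Relative to the median the counts were the same, against 16.7% and 19.7%. At P4, 4 genes did, and none was at least 2-fold higher in epithelium (12.1% of 5283 genes were). Fgf10, Fgfr1 and Spry1 were at least 2-fold higher in P4 mesenchyme (3 of 4, against 29.1%), Spry1 by 2.34-fold (1.46 to 3.84). Relative to the P4 median of all genes, which lay at -0.35, Spry1 was 1.83-fold higher in mesenchyme and no longer past 2-fold, which leaves 2 of 4 against 22.1% of genes, with none of 4 higher in epithelium against 18.3%.

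Because deep cells yield more UMIs of any gene, the joint Etv4, Etv5 and Dusp6 count was set against depth in single epithelial-like cells. E16 cells had a median of 4897 UMIs and P4 cells 3371. Among cells with fewer than 3000 UMIs, 10 of 34 at E16 and 3 of 42 at P4 held at least 1 UMI of the 3 genes, and the summed level was 5.08-fold higher at E16 (1.44 to 27.4). From 3000 to under 8000 UMIs these were 17 of 25 and 4 of 25 cells, with a level 7.68-fold higher at E16 (3.06 to 24.8). At 8000 UMIs or more, 23 of 28 and 17 of 31 cells held them, and the level was 499 CPM at E16 against 49.8 CPM at P4, 10.0-fold higher at E16 (6.73 to 15.4). The P4 level was similar in all 3 ranges (48.1, 44.6 and 49.8 CPM). The E16 level was above it in each, and higher in the deeper ranges (244, 342 and 499 CPM). These ranges also held different clusters. At E16 the median was 10799 UMIs in cluster 9 and 2348 in cluster 1, and the deepest P4 cells were mostly of clusters 6 and 10. Depth and cluster were therefore not separated by these ranges.

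**Figure D3:**
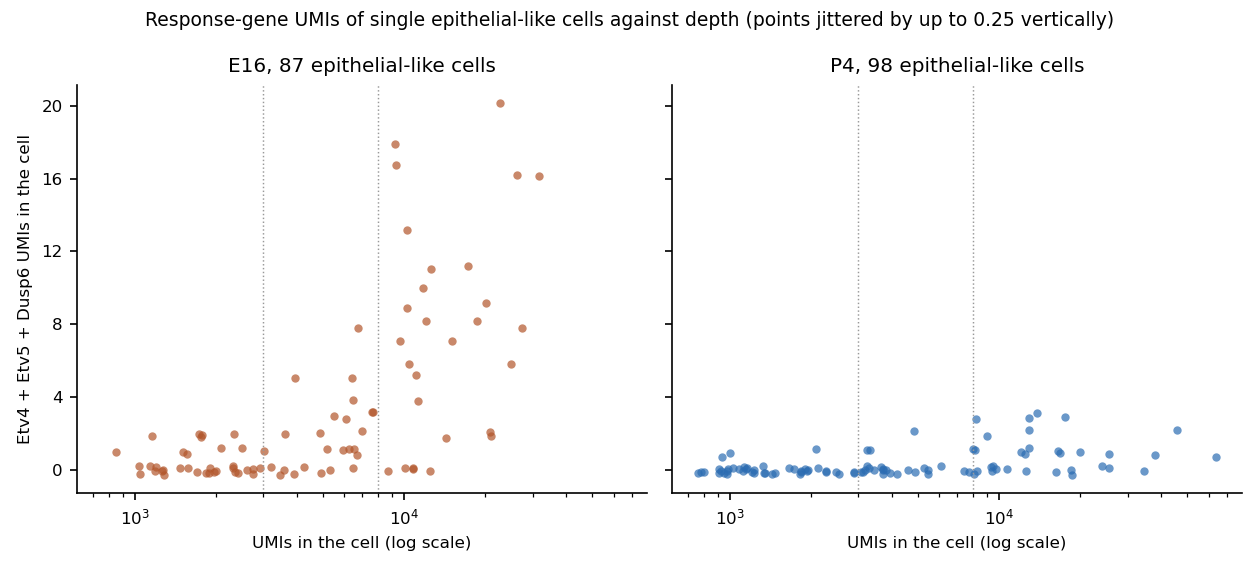
Summed Etv4, Etv5 and Dusp6 UMIs of each epithelial-like cell against the cell's total UMIs on a log axis, 87 cells in E16 and 98 in P4, with dotted lines at 3000 and 8000 UMIs. E16 cells reach 20 UMIs of the 3 genes and P4 cells at most 3, including P4 cells that are deeper than any E16 cell.

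Thinning every cell to 1342 UMIs left 77 E16 and 75 P4 epithelial-like cells, with 10 and 23 too shallow to use. Etv5 was then found in 17 of 77 cells at E16 (22.1%, 13.4 to 33.0%) and 1 of 75 at P4 (1.33%, 0.0338 to 7.21%). Dusp6 was found in 13 (16.9%) and 0 cells, which allows up to 4% at P4, and Etv4 in 8 (10.4%) and 2 (2.67%). For Etv4 the exact intervals of 4.59 to 19.4% and 0.325 to 9.30% overlap. Thinned instead to 2271 UMIs, Etv5 was in 33.3% of E16 and 9.84% of P4 cells. Cells with all 3 genes numbered 16 of 87 at E16 and 1 of 98 at P4 as deposited. Of 27 E16 cells with Etv4 and 36 with Etv5, 23 held both where 11.2 would if the genes were independent, but cells with Etv5 had a median of 9295 UMIs and cells without it 2734. After thinning they shared 2 cells against 1.77, so that sharing beyond depth was not detectable.

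Within the epithelium the E16 signal was present in both main clusters. Cluster 9 (31 E16 cells, median 10799 UMIs) had Etv5 at 262 CPM and Etv4 at 114 CPM, and cluster 1 (48 E16 cells, median 2348 UMIs) at 142 and 57.9 CPM. Cluster 9 exceeded cluster 1 by 1.85-fold for Etv5 (1.16 to 3.07), by 5.08-fold for Spry1 (1.28 to 44.0, from 28 and 2 UMIs), and not beyond counting error for Dusp6 (1.07, 0.644 to 1.85). Cluster 1 is the only epithelial cluster with over 30 cells of each stage. Within it Etv5 had 22 UMIs at E16 and 2 in 35 P4 cells, 5.42-fold higher at E16 (1.33 to 47.6), and Dusp6 21 and 2 UMIs, 5.18-fold (1.27 to 45.5). Etv4 had 9 and 2 UMIs, and its 2.22-fold difference (0.459 to 21.1) did not exceed counting error. Fgfr1 had 8 and 4 UMIs there (51.5 and 52.2 CPM), an E16-over-P4 ratio of 0.986 with an interval (0.264 to 4.47) that also holds the 3.94-fold of the whole class. Its level was 88.7 CPM in cluster 9 at E16, and 17.5 and 7.01 CPM in clusters 6 and 10 at P4. The 8 E16 cells of cluster 6 held 0 Etv5, 0 Etv4 and 1 Dusp6 UMI. Cluster 9 had only 3 P4 cells (8170, 9020 and 13874 UMIs). Each held 1 Etv5 UMI, and their joint counts of Etv4, Etv5 and Dusp6 were 1, 2 and 3. They are too few for a stage comparison within cluster 9, so the low P4 level describes clusters 1, 6 and 10.

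The P4 mesenchyme was not uniform either. Cluster 0, led by Itm2a, Islr and Kera, had Spry1 at 136 CPM (39 UMIs) and Spry4 at 48.7 CPM (14 UMIs). Clusters 4 and 5 together, led by Clec3b, Mfap5, Ly6a and Dpt, had 44.9 CPM (20 UMIs) and 6.74 CPM (3 UMIs). Cluster 0 was therefore 3.02-fold higher for Spry1 (1.72 to 5.47) and 7.23-fold for Spry4 (2.02 to 39.2), and 3.87-fold higher for Dusp6 (1.12 to 16.9, 10 and 4 UMIs). Fgfr1 (0.885, 0.513 to 1.496) and Fgf10 (0.815, 0.339 to 1.84) were not separated between them. In E16 mesenchyme the UMIs of Spry1 (39), Spry4 (29) and Dusp6 (29) were all in cluster 2, and the other mesenchyme clusters had 16 E16 cells in all. Clusters were made without these genes, but their boundaries were known when the clusters to compare were chosen.

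**Figure D4:**
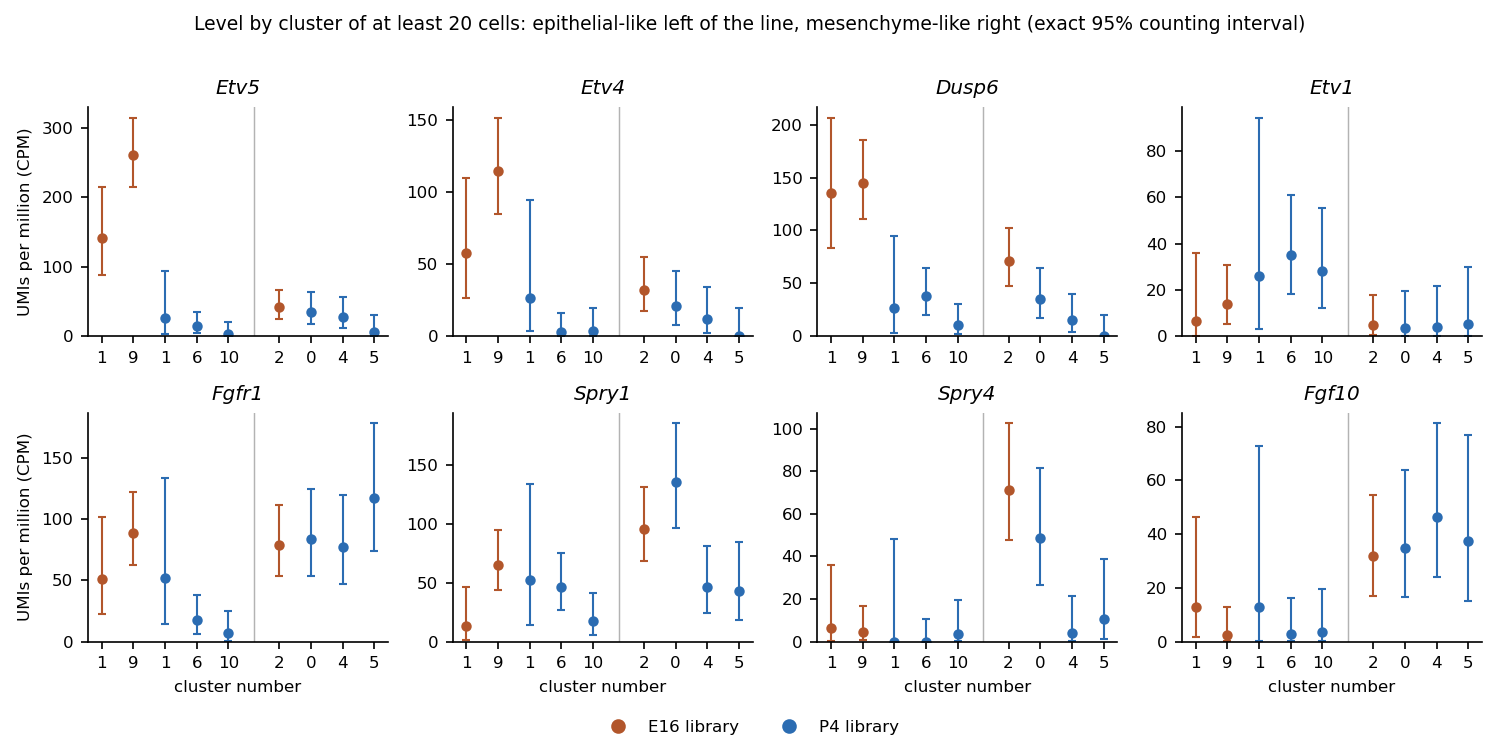
Level of 8 of the genes as CPM in each cluster with at least 20 cells of a stage, epithelial-like clusters left of the line and mesenchyme-like right, with exact 95% counting intervals. Etv5 and Dusp6 are high in both E16 epithelial clusters and low in all 3 shown at P4, and Spry1 and Spry4 in P4 mesenchyme are highest in cluster 0. Cluster 9 has only 3 P4 cells, which are not shown.

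The wider pathway was read from 8 lists, each summarised over genes with at least 30 UMIs, without a test. In epithelium these counts are to be read against 27.4% of all genes at least 2-fold lower at P4 and 7.09% at least 2-fold higher, or 11.9% and 13.8% relative to the median of all genes. In mesenchyme the shares were 11.1% and 7.54%. Of 25 feedback inhibitors and response genes, which include 7 of the genes described, 9 were measured in epithelium, 5 at least 2-fold lower at P4 and none at least 2-fold higher, with a median log2 ratio of -1.44 (3 lower and 1 higher relative to the median of all genes). The 3 lower relative to that median were Etv5, Etv4 and Dusp6. Of the others in this list, Ccnd1 (cyclin D1, 1038 and 381 CPM, 2.72-fold higher at E16) and Myc (95.7 and 35.3 CPM, 2.71-fold) were also lower at P4. Relative to the median they were 1.89-fold and 1.88-fold lower. Il17rd and Spred1, inhibitors of the cascade, each had 24 UMIs at E16 and 5 at P4. Ccnd1, Myc, Il17rd and Spred1 were named after their values had been seen. The 1 gene at least 2-fold higher relative to the median was Dusp5 (22 and 36 UMIs). Its ratio of P4 over E16 was 1.39 (0.797 to 2.49). Phlda1 was higher at P4, 1026 and 1339 CPM (ratio 1.31, 1.18 to 1.44). In mesenchyme 10 of the list were measured, 2 lower and 1 higher, the latter again Phlda1 (2.45-fold, 1.84 to 3.30).

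Of heparan sulphate genes 6 of 10 measured, and of adaptor and ERK cascade genes 6 of 11, were at least 2-fold lower in P4 epithelium and none at least 2-fold higher, with medians of -1.14 and -1.10. Relative to the median of all genes these medians were -0.62 and -0.58, with 3 genes of each list at least 2-fold lower, and 1 of 10 and 2 of 11 at least 2-fold higher. The cell-surface proteoglycan Gpc3 had 199 CPM at E16 against 35.3 CPM at P4 (5.65-fold, 3.68 to 8.98). The sulphotransferase gene Hs3st1 was 4.35-fold higher at E16 (2.52 to 7.94) and Sdc1, a syndecan, 2.80-fold (1.85 to 4.31), while Gpc4 was 1.74-fold higher at P4 (1.01 to 3.09). In the cascade the phosphatase gene Ptpn11 was at 110 and 24.4 CPM (4.504-fold higher at E16, 2.65 to 8.04), and Nras was 3.27-fold higher at E16 (1.74 to 6.53). The MEK genes were divided, with Map2k1 4.38-fold higher at E16 (2.21 to 9.45) and Map2k2 1.51-fold higher at P4 (1.17 to 1.96). In mesenchyme 2 of 12 cascade genes were at least 2-fold lower, a share near the 11.1% of all genes, and 1 of 12 relative to the median. Among them was the adaptor gene Crk (2.88-fold higher at E16, 1.51 to 5.71). Hspg2, the perlecan gene, was 3.11-fold higher in P4 mesenchyme (1.98 to 5.10).

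Immediate early genes, which many stimuli including tissue digestion induce, had 18 measured in epithelium, 2 at least 2-fold lower and 2 at least 2-fold higher at P4, with a median log2 ratio of 0.12. Relative to the median of all genes 5 were at least 2-fold higher and none lower, with a median of 0.65. Jund (2.25-fold, 1.97 to 2.57), Ier3 (2.19-fold, 1.51 to 3.24) and Junb (1.64-fold, 1.504 to 1.78) were higher at P4. Klf2 (2.60-fold, 1.48 to 4.73), Ier5 (2.06-fold, 1.41 to 3.04) and Fos (1.32-fold, 1.19 to 1.47) were higher at E16. Among other receptor tyrosine kinases, 2 of the 4 measured were at least 2-fold lower in P4 epithelium, Epha2 at 123 and 16.3 CPM (7.54-fold, 4.08 to 15.2) and Ddr1 (2.35-fold, 1.25 to 4.59). Ddr1 was 1.63-fold lower relative to the median of all genes, which left 1 of 4 at least 2-fold lower and 1 higher. Of ligands for other such receptors 2 of 4 were at least 2-fold lower, Pdgfa and Pdgfc at 2.37-fold and 2.46-fold higher in E16, and Kitl was 1.99-fold higher at P4 (1.06 to 3.91). None was lower and 2 were higher relative to the median.

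**Figure D5:**
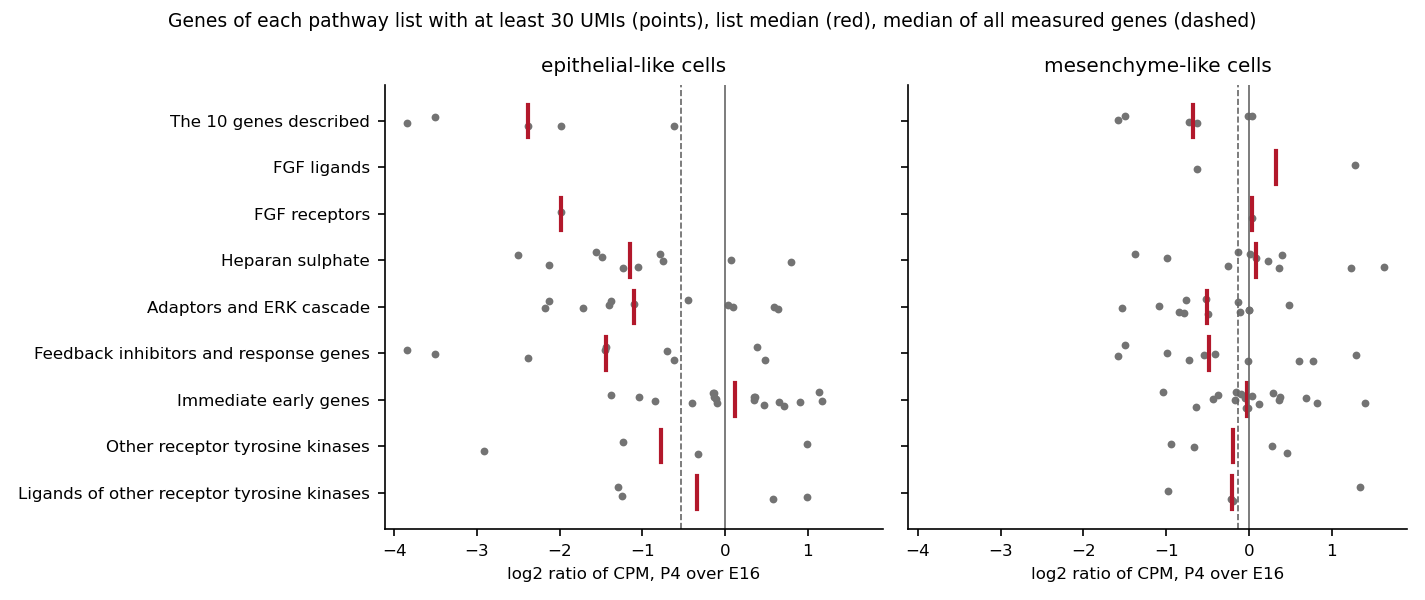
log2 ratio of CPM, P4 over E16, of each gene with at least 30 UMIs (points) in the 10 genes described and 8 pathway lists, with the list median in red and the median of all measured genes dashed. In epithelium the 10 genes have a median of -2.38 and immediate early genes one of 0.12, and in mesenchyme every list median lies between -0.67 and 0.33.

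Genes with the most similar pattern were sought over the 8 groups of class and library with at least 20 cells, among 8009 genes, by Pearson correlation of log2(CPM + 20) as a description. The 5 nearest to Etv5 were Dusp14, Ints2, Cyp7b1, Usp22 and Rasl11b (r from 0.96 to 0.98), each with its highest level in E16 epithelium. Dusp14, a phosphatase gene of the response list, had 21 UMIs in E16 epithelium and 3 in P4 epithelium. The 5 nearest to Dusp6 were Pcf11, Pop4, Pola1, Nrip1 and Api5 (0.96 to 0.98), all highest in cluster 8 of E16. The 5 nearest to Fgf10 were Hvcn1, Cxcl13, Scarf2, Wisp1 and Wdr86 (0.97 to 0.99), with the highest level of each in a mesenchyme group. These correlations include the 1 E16 mesenchyme-like cell that held 16 Fgf10 UMIs. Without it the order of the mesenchyme groups turned, to 28.0 CPM at E16 and 37.6 CPM at P4 with the top cell of each left out. The groups of a stage share a library and its depth.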

How the data were processed

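The authors deposited whole-number UMI counts per gene and barcode, with no normalization, for 1 library per stage. Cell Ranger and mm10 were used per the submitters' processing notes, with no version named there, and the settings and annotation are unknown here.

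Barcodes were kept where 200 or more genes were detected and mitochondrial UMIs did not exceed 10%. Scrublet called 1 doublet in E16 and 0 in P4, and these were kept. Counts were scaled to 10000 per cell, log-transformed and clustered with scanpy 1.11.5 (2000 variable genes without the members and lists, 20 components, 15 neighbours, Leiden resolution 1). Clusters took the class with the highest standardized marker expression. Cluster 8 scored as glial but was led by genes of dividing cells too, so it was kept out of both classes, which was decided after its values were seen. Some items are not reported here.

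UMIs were summed per class and divided by the class total. Ratios have exact conditional intervals and shares exact Clopper-Pearson intervals. A gene at 0 was set to a floor of 3 counts, and the limit given for a share of 0 is 3 counts of the total, not the Clopper-Pearson bound. A gene was measured with at least 30 UMIs over both groups, and so could pass by its count in the higher group alone. This holds for the members and for all genes set beside them. Coverage of the intervals was checked only on simulated Poisson counts, in which UMIs are independent. UMIs of a gene could be concentrated in 1 cell here, as for Fgf10 in E16 mesenchyme, so coverage for these data was not checked. The members, lists, depth ranges and named clusters were chosen with earlier results of these data known. All 10 members were named, and the rule for each list took up to 3 genes in each direction, in order of how far the nearer interval bound lay from a ratio of 1, of which the mesenchyme and class comparisons name only some. One library per stage gives no replicate check, and nothing says how many animals it represents.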

Additional observations from a re-analysis of the deposited data

How the results depend on the processing

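No paired analysis was possible because each stage is 1 library with no replicate number. Each count and median was recomputed under 14 alternatives, of which 2 were chosen after seeing the data, and none turned a direction of a count or median. With at least 10 UMIs per gene in place of 30, 1 of 8 genes in place of none was at least 2-fold higher in P4 epithelium than in P4 mesenchyme, which is Etv1. Leaving out epithelial-like cells with 5 or more mesenchyme-marker UMIs, which are the deep ones (21 at E16 with a median of 15096 UMIs, 33 at P4 with 12875), left 66 and 65 cells and only 2 genes with 30 UMIs between stages, Etv5 (43 and 3 UMIs, 8.66-fold) and Dusp6 (34 and 1 UMIs, 20.5-fold). Both were lower at P4, so that the count was 2, the median log2 ratio -3.74, and the count higher in E16 epithelium than mesenchyme 1 of 5. Spry1, with fewer UMIs, was then 1.16-fold higher at P4, and Dusp6 0.28 of its mesenchymal level at P4. Weighting cells equally took the Etv4 ratio of P4 over E16 to 0.41, and leaving out the top cells took that of Fgf10 in mesenchyme to 1.34. Classing each cell by its own marker UMIs took the Dusp6 ratio of epithelium over mesenchyme at E16 to 1.20. Over all alternatives the epithelial ratio of P4 over E16 lay between 0.0483 and 0.116 for Etv5, 0.0319 and 0.407 for Etv4, and 0.0487 and 0.265 for Dusp6. Below about 30 UMIs per gene, as for Fgfr2, Spry2 and Etv1, counting error alone spans a several-fold range.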

Other observations

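Barcodes left out for fewer than 200 detected genes or for over 10% mitochondrial UMIs also held UMIs of these genes. Apart from haemoglobin, the 178 left-out E16 barcodes had 22686 UMIs, among them 5 of Etv5, 2 each of Fgfr1, Fgfr2 and Fgf10, and 1 each of Etv4 and Dusp6. The 281 left-out P4 barcodes had 34186 such UMIs, among them 2 each of Spry1 and Fgfr1 and 1 each of Etv5, Spry4, Fgfr2 and Fgf10. Per 1000000 such UMIs, Etv5 stood at 220 in E16 and 29.3 in P4, where the epithelial classes had 214 and 14.9 CPM. In E16, Fgfr1, Fgfr2 and Fgf10 each stood at 88.2, and Etv4 and Dusp6 at 44.1. These levels rest on at most 5 UMIs per gene. The part of such RNA in the levels of the kept cells was not tested. In P4 the unassigned cluster 8 held 5 Fgf10 UMIs in 3 of 10 cells (89.5 CPM, 29.1 to 209), and the 25 E16 cells of that cluster held 1.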
